A study of Homo sapiens with 28 samples.

Results

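The nuclear-encoded subunits of the oxidative phosphorylation system were followed across 28 expression arrays. Members were taken by gene symbol: every probe set with a single annotated symbol that begins NDUFA, NDUFB, NDUFC, NDUFS, NDUFV, UQCR, COX4, COX5, COX6, COX7, COX8 or ATP5, or that equals CYC1, SDHA, SDHB, SDHC or SDHD. This gave 107 of 22277 probe sets, of which 101 were brighter than the median probe set on 2 or more arrays, and 74 genes, of which 72 of 8024 genes in all could be tested. The prefixes also took in the complex I assembly factors NDUFAF1, NDUFAF3, NDUFAF4, NDUFAF5 and NDUFAF7, the ATP synthase inhibitor ATP5IF1, the pseudogene ATP5MC2P1 and the antisense RNA gene NDUFB2-AS1. The tested genes held 28 subunits of complex I, 3 of complex II, 7 of complex III, 12 of complex IV and 15 of complex V. COX6A2, the heart and muscle form of subunit 6A, and NDUFAF5 did not pass the filter on dim signal.

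A549 is an established lung adenocarcinoma line and H1299 an established line from a lymph node metastasis of non-small cell lung cancer. Total RNA of each line was measured on one-colour Affymetrix human expression arrays, whose values are MAS5 signals on a linear scale. Each line had 7 groups of 2 arrays: vehicle (DMSO), azacitidine at 0.3, 1 and 3 µM, and decitabine at 0.3, 1 and 3 µM, the drugs given for 48 h with fresh drug added daily. The design asks how a cytosine ribonucleoside analogue, azacitidine, and its 2′-deoxyribonucleoside counterpart, decitabine, compare in their effect on gene expression.

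As background, oxidative phosphorylation is carried out in the inner mitochondrial membrane. Complex I takes electrons from NADH and complex II from succinate, complex III passes them to cytochrome c, complex IV reduces oxygen, and complex V (ATP synthase) uses the proton gradient to make ATP. Most subunits are encoded in the nucleus, and a few core subunits of complexes I, III, IV and V are encoded in the mitochondrial genome. Proliferating tumour lines keep this system active alongside glycolysis.

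The 2 arrays of a group correlated with r between 0.988 and 0.993 over all probe sets, and the median signal of an array lay between 92.7 and 123. Among markers of leukocytes, endothelium and striated muscle, PTPRC, CD3E, CD14, LYZ, PECAM1, CDH5, ACTA1, MYH7, MYL2 and CKM exceeded the array median on 0 arrays, MYH7 with signals up to 114.4, and VWF exceeded it on 1 H1299 array. The keratin KRT8 ranged from 4069 to 9209 in A549 and from 303.5 to 1217 in H1299. The other epithelial markers differed. In H1299 KRT18 exceeded the array median on 14 of 14 arrays, KRT19 and EPCAM on 6, and the epithelial cadherin CDH1 on 0. In A549 KRT18 and EPCAM exceeded it on 14 arrays and KRT19 and CDH1 on 11. The mesenchymal markers VIM and CDH2 exceeded it on all 14 arrays of each line, and FN1 on 14 in A549 and 10 in H1299. The haemoglobin chain HBB exceeded it on 13 of 14 arrays in each line, with signals of 107.7 to 193.7 in A549 and 87.2 to 168 in H1299, and the reason was not tested. In A549, vehicle replicate 1 and azacitidine 3 µM replicate 1 had the highest 25th percentiles of signal, 28.25 and 25.66, and decitabine 3 µM replicate 1 is labelled as a repeat. Results that rest on these 3 arrays are given with and without them. Arrays scaled to the same mean cannot tell fewer cells from less RNA per cell.

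Promoter sequences are shown first, because 22 of the genes fell in both lines with azacitidine at 3 µM, as described below. RefSeq promoter windows of build GRCh38.p14 were matched for 64 of the 74 genes, and the 250 bases before each annotated start were searched on both strands for the NRF1 letters (GCGCA, any base, then GCGC) and for the ETS letters CCGGAAG, a site type that the factor GABPA binds. NRF1 and GABPA are textbook regulators of respiratory chain genes. The NRF1 letters occurred in 11 of 80 member windows (13.8%), against 8.86% of the windows of all genes tested and 5.07% of all RefSeq windows. The ETS letters occurred in 17 windows (21.2%), against 13.7% and 8.52%. Of the 22 genes that fell in both lines, 8 held either motif, and of the other 42 matched members 17 did. The ATF4 composite letters TGATGNAA were in 1 member window (1.25%), against 1.72% and 3.14%. The 4 windows printed first belong to genes that fell in both lines with azacitidine, and the fifth, SDHA, to a gene that did not fall with azacitidine and rose with decitabine. Each is printed 5′ to 3′ on the strand of its gene, with the motif letters in capitals. In COX6B1 the capitals mark the ETS letters read on the opposite strand, and in the others they mark the NRF1 letters. The last marked stretch of ATP5ME holds the NRF1 letters read on the opposite strand too.
ATP5F1C: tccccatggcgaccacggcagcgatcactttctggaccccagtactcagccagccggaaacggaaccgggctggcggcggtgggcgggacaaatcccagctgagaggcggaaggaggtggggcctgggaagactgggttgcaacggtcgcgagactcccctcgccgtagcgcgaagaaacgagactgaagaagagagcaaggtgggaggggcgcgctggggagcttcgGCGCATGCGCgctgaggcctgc
ATP5ME: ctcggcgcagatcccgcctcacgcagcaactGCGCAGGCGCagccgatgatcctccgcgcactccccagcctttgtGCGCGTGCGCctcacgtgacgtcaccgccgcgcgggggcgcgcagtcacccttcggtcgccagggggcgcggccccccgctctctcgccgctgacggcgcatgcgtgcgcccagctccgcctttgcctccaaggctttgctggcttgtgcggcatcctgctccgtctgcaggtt
COX6B1: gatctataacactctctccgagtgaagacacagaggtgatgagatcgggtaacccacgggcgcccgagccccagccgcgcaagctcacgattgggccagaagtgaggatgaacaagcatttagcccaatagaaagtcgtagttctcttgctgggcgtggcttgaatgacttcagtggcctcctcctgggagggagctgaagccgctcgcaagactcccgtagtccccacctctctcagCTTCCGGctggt
NDUFB4: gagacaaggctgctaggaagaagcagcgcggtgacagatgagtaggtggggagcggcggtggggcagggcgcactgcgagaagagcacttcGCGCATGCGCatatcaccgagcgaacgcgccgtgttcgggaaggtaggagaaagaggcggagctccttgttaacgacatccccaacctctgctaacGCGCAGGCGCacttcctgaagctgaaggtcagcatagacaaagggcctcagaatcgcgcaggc
SDHA: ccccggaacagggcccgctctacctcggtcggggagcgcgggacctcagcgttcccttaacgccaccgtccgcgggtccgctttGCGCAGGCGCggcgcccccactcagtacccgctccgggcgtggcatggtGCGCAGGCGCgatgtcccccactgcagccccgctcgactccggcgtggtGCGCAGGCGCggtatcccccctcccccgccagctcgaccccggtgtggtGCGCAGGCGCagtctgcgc

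The window of ATP5F1C is chr10:7787927-7788176 on the plus strand, with 1 NRF1 match. That of ATP5ME is chr4:674277-674526 on the minus strand, with 2 matches. COX6B1 has 1 ETS match in chr19:35648073-35648322 on the plus strand. NDUFB4 has 2 NRF1 matches in chr3:120596086-120596335 on the plus strand, and SDHA has 4 in chr5:218070-218319, also on the plus strand. A match is a description of these letters and not evidence of binding. Member windows were rich in CpG dinucleotides, the sites of DNA methylation, with a median of 18 and a range of 0 to 35, against a median of 20 over the windows of all genes tested and 11 over all RefSeq windows.

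**Figure D1:**
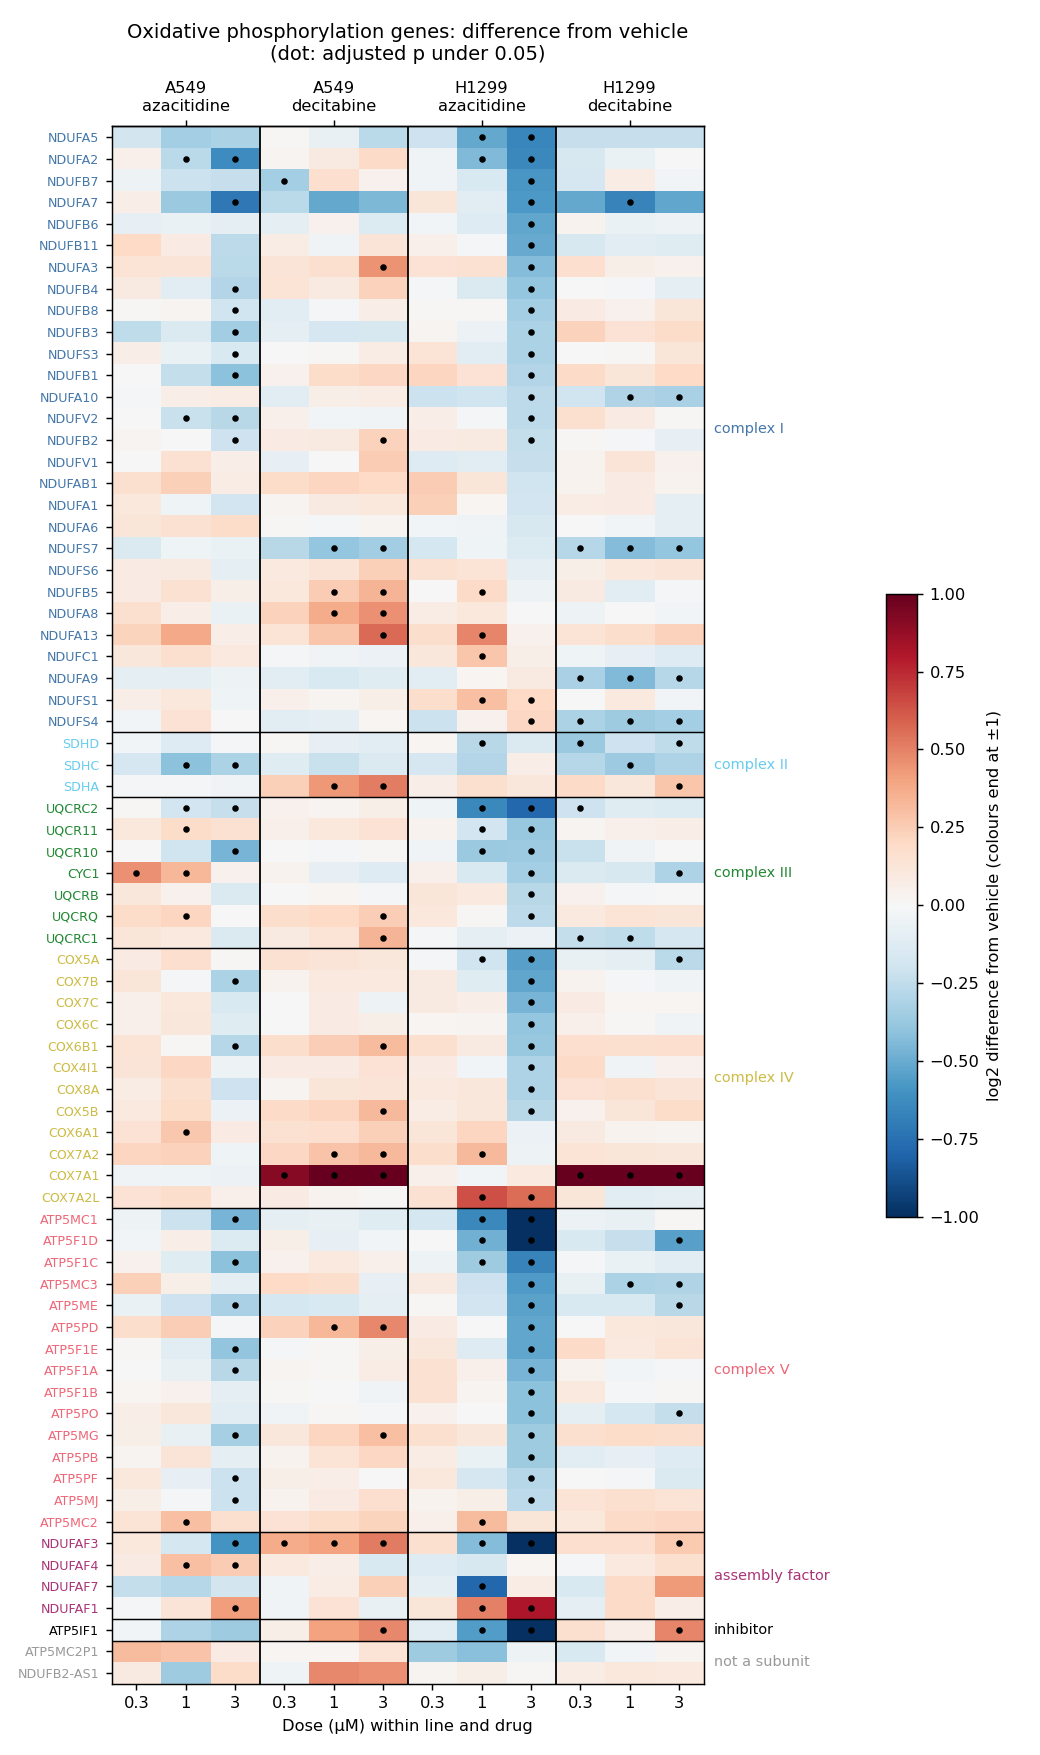
Colours give the log2 difference from the vehicle of the same line for the 72 genes tested (rows, grouped by complex) at each dose of each drug (columns, µM), with a dot where the adjusted p was under 0.05. The column of azacitidine at 3 µM in H1299 holds 45 genes called lower and 4 called higher, a direction that held under quantile normalization. That of decitabine at 3 µM in A549 holds 16 called higher and 1 lower.

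In H1299, azacitidine at 3 µM was followed by lower signal of most subunits of complexes I, III, IV and V. Of the 72 genes, 45 were called lower and 4 higher, where 53.9% of all genes tested were called in either direction, 21.6% lower and 32.3% higher. The median log2 difference of the members was -0.30, against 0.08 over all genes tested. The direction held under quantile normalization, with 38 lower and 6 higher. Median centring gave 54 lower and 2 higher, but it lowered every difference by the same amount, so it could not test this direction. With median centring the median over all genes became -0.10 in place of 0.08, and that of the members -0.48 in place of -0.30. Median centring moves every gene of an array by the same amount, so it cannot change the distance between these medians. That distance was therefore not tested by median centring. For 53 members both treated arrays lay below both vehicle arrays, and for 7 both lay above. This was not counted over all genes tested, so it is a description of the members only.

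Complex I lost signal in both of its arms, and a difference between the arms was not tested. In the membrane arm 10 of 15 subunits were lower, with a median of -0.29. In the matrix arm, which carries the NADH and ubiquinone sites, 5 of 12 were lower and 2 higher, with a median of -0.19. Both higher calls, NDUFS1 and NDUFS4, were lost under quantile normalization and median centring. NDUFA2, an accessory subunit of the matrix arm, gave vehicle signals of 1914 and 2194 and treated signals of 1343 and 1257. Both treated arrays were below both vehicle arrays, and the log2 difference was -0.64 ± 0.09 (SE, n = 2 and 2; limma, adjusted p = 3.77e-06). NDUFS1, the largest iron-sulphur core subunit, went from 1255 and 1378 to 1505 and 1523. The groups did not overlap, and the log2 difference was 0.20 ± 0.07 (limma, adjusted p = 0.0249). The call was kept under 7 of 12 alternatives, with values from 0.02 under median centring to 0.26, and that of NDUFS4 under 2 of 12. NDUFV1, the core subunit that binds NADH, gave 1161 and 943.9 in vehicle and 856.6 and 923.3 treated and was not called.

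The complex II genes SDHA, SDHC and SDHD gave no call by limma in H1299 at 3 µM, and 0 of them had an unadjusted p under 0.05. SDHA, the flavoprotein that oxidises succinate, stood at 941.8 and 797.9 in vehicle and at 951.7 and 933.1 treated, so the groups overlapped. The probe set of SDHA is of the kind that can also bind related transcripts, and SDHA has near-identical pseudogene copies, so its values are uncertain.

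In complex III, 6 of 7 subunits were lower, with a median of -0.34. UQCRC2, a core protein of the complex, gave 2816 and 2898 in vehicle, 2727 and 2822 at 0.3 µM, 1889 and 1746 at 1 µM and 1663 and 1621 at 3 µM. The arrays of the upper doses lay far below the vehicle arrays. The log2 difference was -0.64 ± 0.07 at 1 µM and -0.79 ± 0.07 at 3 µM (n = 2 and 2; limma, adjusted p = 3.20e-07 and 4.70e-09). CYC1, which is cytochrome c1, the subunit that hands electrons to cytochrome c, fell from 3689 and 3725 to 3074 and 2767, a log2 difference of -0.34 ± 0.08 (limma, adjusted p = 0.00147). UQCRC1, the other core protein, gave 1828 and 1873 in vehicle and 1717 and 1826 treated and was not called.

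Of the 10 ubiquitous subunits of complex IV, 8 were lower, with a median of -0.35. COX5A, a subunit of the matrix side, went from 8996 and 9036 to 6392 and 5976, with no overlap of the groups. Its log2 difference was -0.54 ± 0.07 (limma, adjusted p = 6.09e-07). COX7B and COX4I1 fell by 0.52 and 0.31 on the log2 scale (adjusted p = 5.79e-06 and 0.00220), COX5B by 0.28, COX6B1 by 0.38 and COX8A by 0.31. The call of COX5B was lost under quantile normalization and that of COX8A without vehicle replicate 2. COX6A1 and COX7A2, the liver forms of subunits 6A and 7A, gave differences of -0.06 and -0.05 and were not called. COX7A2L, a related protein that joins complexes III and IV into supercomplexes, rose from 2786 and 2429 to 3800 and 4396 at 1 µM and 3635 and 4081 at 3 µM. Its arrays at both upper doses were above the vehicle arrays, with log2 differences of 0.65 ± 0.10 and 0.56 ± 0.10 (limma, adjusted p = 3.64e-05 and 6.89e-05).

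Complex V had the lowest median of the complexes, -0.46, with 14 of 15 subunits called lower. All 5 subunits of the F1 head and central stalk and all 4 of the peripheral stalk were among them. ATP5F1D, the delta subunit of the central stalk, gave 1660 and 1538 in vehicle, 1127 and 1143 at 1 µM and 756.3 and 807 at 3 µM. Signal was lower at the higher dose, with log2 differences of -0.48 ± 0.11 and -1.003 ± 0.11 (limma, adjusted p = 0.00140 and 9.26e-08). ATP5F1C, the gamma subunit whose promoter is printed above, fell from 5791 and 5740 to 3639 and 3580 (log2 difference -0.67 ± 0.07, adjusted p = 8.06e-08). ATP5F1A and ATP5F1B, the alpha and catalytic beta subunits, fell by 0.46 and 0.41 on the log2 scale (adjusted p = 2.57e-05 and 0.000144).

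The 3 genes for subunit c of the rotor ring differed. They encode different precursors of the same mature protein, and ATP5MC2 and ATP5MC3 are named here after their values were seen. ATP5MC1 gave 2360 and 2298 in vehicle, 2276 and 1855 at 0.3 µM, 1444 and 1512 at 1 µM and 981 and 1167 at 3 µM. Its treated arrays at 1 and 3 µM were all below the vehicle arrays, with log2 differences of -0.64 ± 0.11 and -1.10 ± 0.11 (limma, adjusted p = 0.000105 and 3.45e-08). ATP5MC3 went from 6788 and 7880 to 5135 and 4712 at 3 µM, a log2 difference of -0.57 ± 0.10 (adjusted p = 4.66e-05). ATP5MC2 went from 4072 and 4746 to 5100 and 5912 at 1 µM, a log2 difference of 0.32 ± 0.09 (limma, adjusted p = 0.00773), and at 3 µM its 4767 and 4798 gave no call.

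Among the genes that are not subunits, NDUFAF3 and ATP5IF1 fell and NDUFAF1 rose. NDUFAF3, an assembly factor of complex I, gave 634.6 and 750.9 in vehicle, 510.8 and 497.8 at 1 µM and 266.4 and 265.5 at 3 µM. All treated arrays at these doses were below the vehicle arrays, and the log2 difference at 3 µM, -1.28 ± 0.09, was the largest fall of any member (limma, adjusted p = 2.75e-10). NDUFAF1, another complex I assembly factor, rose from 530.9 and 575.9 to 745.4 and 857.1 at 1 µM and 947.2 and 1038 at 3 µM. That was a log2 difference of 0.81 ± 0.11 at 3 µM, the largest rise (adjusted p = 3.70e-06). ATP5IF1, the protein that inhibits ATP hydrolysis by ATP synthase, went from 1199 and 824.6 to 601.2 and 736.9 at 1 µM and 510.3 and 458.5 at 3 µM, where both arrays lay below both vehicle arrays (log2 difference -0.99 ± 0.15, adjusted p = 1.08e-05).

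At the lower doses in H1299 the calls were fewer. At 1 µM azacitidine, 13 genes were lower and 8 higher, where 35.3% of all genes were called, 15.4% lower and 19.9% higher. The split was 18 and 7 under quantile normalization and 16 and 6 under median centring, and 10 genes were called without vehicle replicate 1 and 13 without azacitidine 1 µM replicate 2. At 0.3 µM limma called 0 of the 72 after adjustment, where 5.67% of all genes were called, 2.46% higher and 3.22% lower; 5 were higher and 2 lower at an unadjusted p under 0.05. Whether the replicates were separate cultures is not stated in the labels, and the p-values measure only the spread between these samples, which may be technical. The number of arrays, 2 a group, limits the precision.

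**Figure D2:**
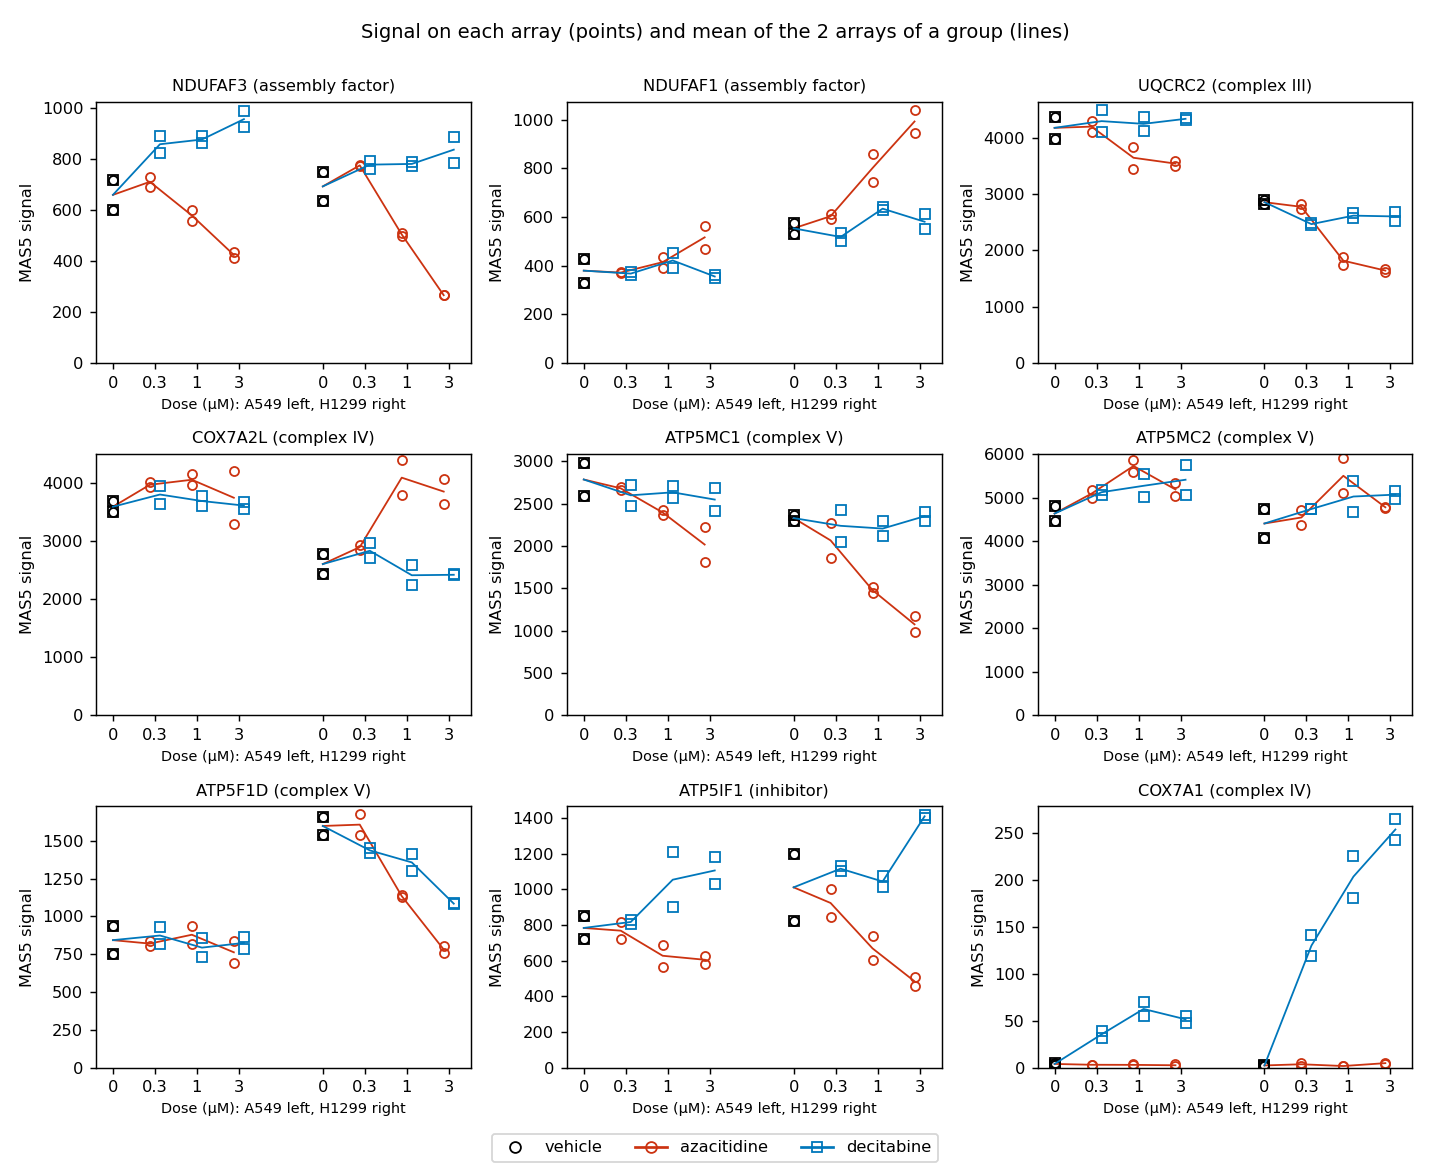
Points give the MAS5 signal of each array (linear axis from 0) for 9 genes at each dose in A549 and H1299, and lines join the means of the 2 arrays of a group. In H1299 the azacitidine arrays of NDUFAF3 go from 776.7 and 773.8 at 0.3 µM to 266.4 and 265.5 at 3 µM. Those of NDUFAF1 go up to 947.2 and 1038. For COX7A1 every decitabine array lies above every vehicle and azacitidine array.

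In A549, azacitidine at 3 µM gave a smaller change in the same direction. Of the 72 genes, 23 were lower and 2 higher, where 38.3% of all genes were called, 16.2% lower and 22.1% higher. The median of the members was -0.11, against 0.06 over all genes. Under quantile normalization 25 were lower and 5 higher, and under median centring 31 and 1. Without the 3 arrays in doubt, which left 1 array in each of these groups, the median of the members was -0.129, against 0.074 over all genes. Leaving out 1 array at a time gave medians of the members between -0.166 and -0.091.

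Complex V again had the most calls for its size, 8 of 15 lower and a median of -0.22, and complex I had 9 of 28 lower. ATP5F1C gave 7077 and 7638 in vehicle and 5415 and 5662 treated. Those arrays did not overlap, and the log2 difference was -0.41 ± 0.07 (limma, adjusted p = 0.000114). ATP5MC1 went from 2585 and 2984 to 1808 and 2225, a log2 difference of -0.46 ± 0.11 (adjusted p = 0.00209), and that call was lost without azacitidine 3 µM replicate 1. ATP5F1A fell by 0.28 on the log2 scale (adjusted p = 0.00643), a call lost without that array and without vehicle replicate 2, with values between -0.37 and -0.18 over the alternatives.

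In complex I, NDUFA7, an accessory subunit of the matrix arm, went from 834.2 and 1025 to 471.1 and 642, a log2 difference of -0.72 ± 0.21 (limma, adjusted p = 0.00893) that was lost without the 3 arrays in doubt. NDUFA2 went from 2096 and 2207 to 1331 and 1425, with no overlap (log2 difference -0.63 ± 0.09, adjusted p = 1.21e-05). NDUFB1, of the membrane arm, fell by 0.41 (adjusted p = 0.000945). UQCR10, a small subunit of complex III, went from 3089 and 3475 to 2164 and 2584 (log2 difference -0.47 ± 0.09, adjusted p = 0.000497). UQCRC2 fell from 4378 and 3977 to 3584 and 3501 (log2 difference -0.23 ± 0.07, adjusted p = 0.0101), again a call that was lost without the 3 arrays.

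NDUFAF3 fell and NDUFAF1 rose, as in H1299, and NDUFAF4 rose in A549 without being called in H1299, where its difference was 0.02. NDUFAF3 went from 600.1 and 719 to 411.1 and 436.8, and the groups did not overlap (log2 difference -0.60 ± 0.09, limma, adjusted p = 3.03e-05). NDUFAF1 went from 330.2 and 428.9 to 468 and 564.7 (log2 difference 0.42 ± 0.11, adjusted p = 0.00577), and NDUFAF4, also of complex I assembly, from 1543 and 1571 to 1819 and 1897 (0.25 ± 0.07, adjusted p = 0.00754). Both rises were lost without the 3 arrays in doubt. The calls of NDUFA2, NDUFAF3, NDUFB1, UQCR10 and COX7B were kept under every alternative run.

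The lower doses in A549 gave little. At 0.3 µM 1 gene was called, where 2.44% of all genes were, 1.17% higher and 1.27% lower: CYC1 rose from 3371 and 3468 to 4625 and 4794 (log2 difference 0.46 ± 0.08, limma, adjusted p = 0.00419), and without the 3 arrays 0 genes were called. At 1 µM 6 genes were higher and 4 lower, where 25.2% of all genes were called, 13.1% higher and 12.1% lower. Under quantile normalization the split was 4 higher and 11 lower, and under median centring 3 and 4, so the direction of the members at this dose depended on the scaling. Without vehicle replicate 1 there were 3 calls and without vehicle replicate 2 there were 16.

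The lines share no arrays, but the fit gave each gene 1 variance over both lines. Their calls are therefore not independent of each other, and the overlap is a description. Of the 23 members lower in A549 at 3 µM azacitidine, 22 (95.7%) were among the 45 lower in H1299, of which they made 48.9%. Over all genes tested, 709 were lower in both, 54.4% of those lower in A549 and 40.9% of those lower in H1299. Members were also called lower more often than all genes, 62.5% against 21.6% in H1299 and 31.9% against 16.2% in A549. Such shares raise the overlap by themselves, so it does not show that the lines agreed more closely on the members. The shared genes were ATP5F1A, ATP5F1C, ATP5F1E, ATP5MC1, ATP5ME, ATP5MG, ATP5MJ and ATP5PF of complex V, NDUFA2, NDUFA7, NDUFB1, NDUFB2, NDUFB3, NDUFB4, NDUFB8, NDUFS3 and NDUFV2 of complex I, UQCR10 and UQCRC2 of complex III, COX6B1 and COX7B of complex IV, and NDUFAF3. SDHC, a membrane anchor of complex II, was the 1 gene called in A549 and not in H1299, and its arrays overlapped in A549. The only shared rise was NDUFAF1.

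The difference between the lines was tested as an interaction term. The response was higher in A549 than in H1299 for 14 of the 72 genes and lower for 1, where 31.4% of all genes were called, 13.9% and 17.5% in these directions. Under median centring the counts were 23 and 1, and 9 genes were called without H1299 azacitidine 3 µM replicate 2. COX5A is an example: A549 signals of 8824 and 9504 in vehicle and 9265 and 9236 treated overlapped, while H1299 fell as given above, and the response differed by 0.56 ± 0.09 on the log2 scale (limma, adjusted p = 0.000123). The differences for ATP5F1D, NDUFAF3, ATP5MC1, UQCRC2 and COX5A were kept under every alternative run.

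**Figure D3:**
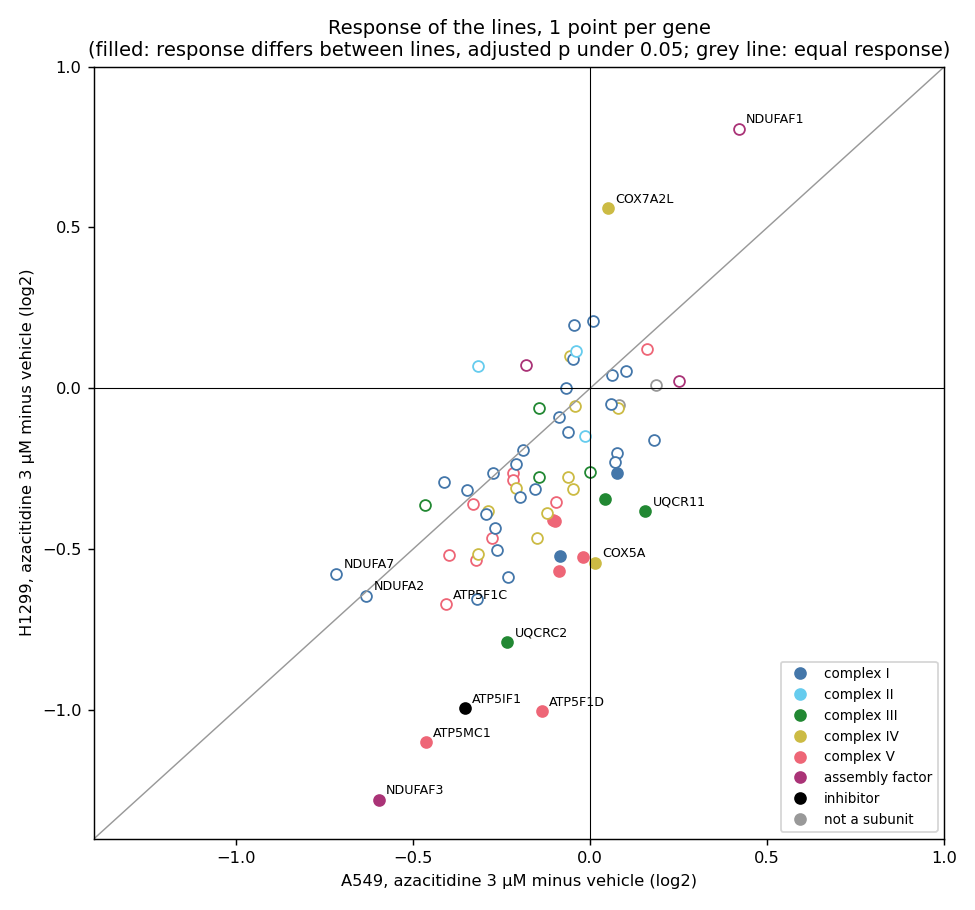
Each point is 1 gene, with the log2 difference from vehicle at 3 µM azacitidine in A549 on the horizontal axis and in H1299 on the vertical axis; filled points differ between the lines at an adjusted p under 0.05. NDUFAF3 lies at -0.60 and -1.28 and ATP5F1D at -0.14 and -1.003, below the grey line of equal response, and COX7A2L at 0.05 and 0.56 lies above it.

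Decitabine was set against the same 2 vehicle arrays of each line as azacitidine. In A549 at 3 µM, 16 of the 72 genes were higher and 1 lower, where 25.8% of all genes were called, 15% higher and 10.8% lower, so the share called higher (22.2%) was above that of all genes. The median of the members was 0.09, against 0.01 over all genes. Quantile normalization gave 23 higher and 1 lower, and median centring 13 and 1. Without the 3 arrays in doubt, which left 1 array in each of these 2 groups, the median of the members was 0.02, against 0.03 over all genes. The members then did not lie above all genes. Without decitabine 3 µM replicate 1, 7 genes were called, and without vehicle replicate 1, 8.

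SDHA, NDUFAF3 and ATP5IF1 were among the genes that rose. SDHA gave 1114 and 1223 in vehicle, 1306 and 1461 at 0.3 µM, 1499 and 1689 at 1 µM and 1715 and 1633 at 3 µM. Every decitabine array was above both vehicle arrays, and the log2 difference at 3 µM was 0.51 ± 0.10 (limma, adjusted p = 0.000623). NDUFAF3 went from 600.1 and 719 to 988.4 and 924.8 (0.52 ± 0.09, adjusted p = 0.000278), the opposite direction to azacitidine in the same line. ATP5IF1 went from 848.2 and 719.5 to 1183 and 1030 (0.48 ± 0.15, adjusted p = 0.0231).

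In complex I the membrane arm had 5 of 15 higher. NDUFA13, also known as GRIM-19, went from 1338 and 1624 to 2656 and 1815, a log2 difference of 0.57 ± 0.17 (limma, adjusted p = 0.0188) that rested on the first treated array. ATP5PD, of the peripheral stalk, went from 5696 and 6783 to 9433 and 8000 (0.48 ± 0.10, adjusted p = 0.000887), and UQCRC1 from 1781 and 1977 to 2460 and 2319 (0.34 ± 0.08, adjusted p = 0.00365). NDUFS7, an iron-sulphur core subunit next to the ubiquinone site, was the 1 gene that fell, from 480.8 and 501.6 to 376.5 and 382.7 (-0.35 ± 0.09, adjusted p = 0.00752). These calls were all lost without the 3 arrays in doubt, where SDHA gave 0.41, NDUFAF3 0.35, ATP5PD 0.24, UQCRC1 0.23 and NDUFA13 0.16. Over all alternatives NDUFS7 stayed between -0.37 and -0.32 and ATP5IF1 between 0.37 and 0.60. At 1 µM 7 genes were higher and 1 lower, where 16.6% of all genes were called (9.78% and 6.79%). At 0.3 µM it was 2 and 1, where 7.69% were (4.31% and 3.38%); 3 and 1 genes were called at these doses without the 3 arrays. Leaving out decitabine 1 µM replicate 2 left 2 calls at 1 µM, and leaving out vehicle replicate 1 left 1 at 0.3 µM.

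In H1299, decitabine at 3 µM gave 4 genes higher (COX7A1 among them, whose call the filter on dim signal fixed) and 11 lower, where 30.9% of all genes were called, 16.3% higher and 14.6% lower, and a median near 0 like that of all genes, -0.01. Under quantile normalization the split was 9 and 11 and under median centring 2 and 12. Leaving out decitabine 3 µM replicate 1 left 6 calls, and leaving out replicate 2 left 7. ATP5F1D went from 1660 and 1538 in vehicle to 1455 and 1420 at 0.3 µM, 1415 and 1301 at 1 µM and 1090 and 1080 at 3 µM. All decitabine arrays were below the vehicle arrays, and the log2 difference at 3 µM was -0.55 ± 0.11 (limma, adjusted p = 0.000567). NDUFS7 fell from 866.5 and 891.4 to 688.8 and 643.3 (-0.39 ± 0.09, adjusted p = 0.00280), and it fell at all 3 doses. NDUFS4, an accessory subunit of the NADH module, went from 1237 and 1178 to 1017 and 885.1 (-0.34 ± 0.09, adjusted p = 0.00541), and CYC1 fell by 0.31 (adjusted p = 0.00772). The calls of NDUFS4 and CYC1 were lost without decitabine 3 µM replicate 2, and that of NDUFS4 also without vehicle replicate 1.

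The rises in H1299 were those of ATP5IF1, SDHA, NDUFAF3 and, by the filter, COX7A1, all among the 16 of A549. Over all genes tested, 468 were higher in both lines, 35.8% of those higher in H1299 and 39% of those higher in A549. ATP5IF1 went from 1199 and 824.6 to 1418 and 1403 (0.49 ± 0.15, limma, adjusted p = 0.0175), SDHA from 941.8 and 797.9 to 1054 and 1060 (0.28 ± 0.10, adjusted p = 0.0374), and NDUFAF3 from 634.6 and 750.9 to 888.3 and 785.5 (0.26 ± 0.09, adjusted p = 0.0348). The treated arrays were above the vehicle arrays for each, but each of these 3 calls was lost under several alternatives. At 1 µM 8 genes were lower and 1 higher, where 23.4% of all genes were called (11.6% and 11.8%). At 0.3 µM it was 6 and 1, where 17.8% were, 8.9% in each direction, and 3 and 1 under median centring. The 1 higher gene at both doses was COX7A1, again fixed by the filter. Leaving out any 1 of the 4 arrays gave 4 to 6 calls at 1 µM, fewest without vehicle replicate 2, and 1 to 4 at 0.3 µM, fewest without vehicle replicate 1.

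COX7A1, the heart and muscle form of complex IV subunit 7A, passed the filter through the 6 H1299 decitabine arrays alone, so it had to differ there and its values are a description. On all vehicle and azacitidine arrays of both lines its signal was between 1.344 and 5.237. On the A549 decitabine arrays it was 39.19 and 31.61 at 0.3 µM, 69.83 and 55.02 at 1 µM and 54.88 and 47.96 at 3 µM. In H1299 it was 141.5 and 118.4, 181.1 and 225.6, and 242.2 and 264.9 at these doses. Every decitabine array was above every other array, and the A549 decitabine arrays were below the array median. The size of a fold from so dim a base depends on the constant added before the logarithm: the log2 difference in H1299 at 3 µM was 3.06 with 32 added and 6.29 with 1 added, and in A549 1.22 and 3.44. The other muscle form on the array, COX6A2, gave 104.1 and 76.4 in A549 vehicle and 50.5 and 71.9 at 3 µM decitabine. The muscle markers ACTA1, MYH7, MYL2 and CKM were below the array median on all 28 arrays.

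**Figure D4:**
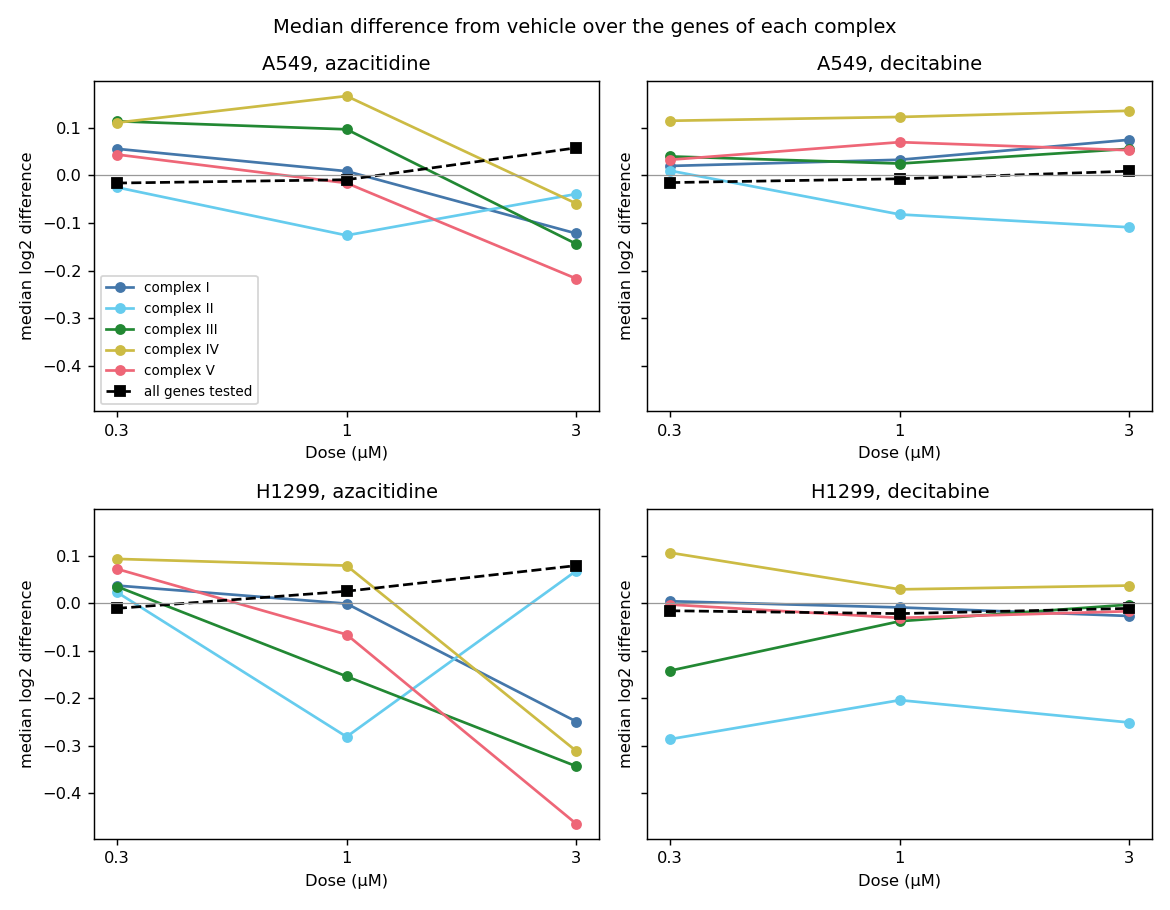
Lines give the median log2 difference from vehicle over the tested subunits of each complex at 0.3, 1 and 3 µM, with all 8024 genes as the dashed line. With azacitidine at 3 µM complex V is lowest, at -0.46 in H1299 and -0.22 in A549, where all genes lie at 0.08 and 0.06, and with decitabine at 3 µM complex IV lies at 0.14 in A549 and 0.04 in H1299; under median centring all genes at 3 µM azacitidine in H1299 lie at -0.10.

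Azacitidine and decitabine were then compared directly at matched doses, as the mean difference over 0.3, 1 and 3 µM. The 2 compounds differ in the sugar, ribose in azacitidine and deoxyribose in decitabine. This was 1 pair in each line, fitted over the 3 doses together and at each dose, with p adjusted over the 8024 genes. In A549 27 genes were lower with azacitidine and 6 higher, where 54.4% of all genes were called, 26.5% lower and 27.9% higher. In H1299 35 were lower, COX7A1 by the filter among them, and 11 higher, where 54% of all genes were called, 23.1% lower and 30.9% higher. The medians were -0.10 and -0.12, against 0.02 and 0.05 over all genes. Quantile normalization gave 29 and 5 in A549 and 35 and 10 in H1299, and median centring 32 and 4, and 41 and 8.

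NDUFAF3 was lower with azacitidine in both lines, with differences of -0.65 ± 0.05 in A549 and -0.72 ± 0.05 in H1299 (log2, n = 6 and 6 arrays; limma, adjusted p = 2.08e-09 and 3.97e-10). All 6 azacitidine arrays of A549 lay below all 6 decitabine arrays, and in H1299 the arrays at 0.3 µM overlapped. The differences of ATP5IF1 were -0.55 ± 0.09 and -0.79 ± 0.09 (adjusted p = 2.21e-05 and 1.47e-07), without overlap in H1299. UQCRC2 gave -0.18 and -0.34 and ATP5F1C -0.23 and -0.29, each past the threshold in both lines. Of the lower genes 18 were shared, COX7A1 among them by the filter. They made 66.7% of those in A549 and 51.4% of those in H1299, where all genes gave 45.8% and 52.7%. Of the members 37.5% and 48.6% were lower, against 26.5% and 23.1% of all genes, which by itself raises the overlap.

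Other genes differed between the drugs in 1 line. SDHA was lower with azacitidine in A549, at -0.41 ± 0.06 (limma, adjusted p = 3.15e-06), and in H1299 the interval of the difference was -0.20 to 0.04. ATP5MC1 was lower in H1299, at -0.60 ± 0.06 (adjusted p = 8.07e-08), and in A549 the interval was -0.27 to -0.01 with an adjusted p of 0.0639. COX7A2L was higher with azacitidine in H1299, by 0.48 ± 0.06 (adjusted p = 4.51e-07), with an interval of -0.04 to 0.20 in A549. CYC1 was higher in A549, by 0.34 ± 0.05 (adjusted p = 5.50e-06), with an interval of -0.05 to 0.15 in H1299. The difference between the lines in these drug contrasts was not tested.

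Higher with azacitidine in both lines were NDUFAF1, by 0.16 and 0.42, NDUFC1, a membrane arm subunit of complex I, by 0.16 and 0.23, and NDUFS7 by 0.25 in each. In H1299 NDUFS4 was higher by 0.35 and NDUFS1 by 0.20, with no overlap of the 12 arrays. Some members did not differ at this precision. The 95% interval of ATP5MC2 ran from -0.09 to 0.12 in A549 and from -0.11 to 0.10 in H1299, that of ATP5MC3 from -0.15 to 0.09 and from -0.12 to 0.12, and that of COX6A1 from -0.13 to 0.09 and from -0.07 to 0.15. A p above the threshold does not show that the drugs act alike on them.

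More members differed between the drugs at the higher doses. At 0.3 µM 1 gene was lower and 1 higher in each line, where 5.7% of all genes were called in A549 (3.63% lower, 2.07% higher) and 6.39% in H1299 (4.03% and 2.37%). The lower gene in H1299 was COX7A1, whose call there the filter fixed, and it was also among the lower genes of H1299 at 1 and 3 µM. At 1 µM 13 were lower and 5 higher in A549, where 34.3% of all genes were called (17.9% and 16.4%), and 12 and 9 in H1299, where 34% were (15% and 19%). At 3 µM 40 were lower and 3 higher in A549, where 50.4% of all genes were called (23.8% and 26.6%), and 41 and 8 in H1299, where 56.3% were (23.3% and 33%). Of these lower genes 29 were shared, COX7A1 among them by the filter, 72.5% and 70.7%, where all genes gave 49.9% and 51%. Members were also lower more often than all genes, at 55.6% and 56.9%, which by itself raises the overlap. For NDUFAF3 the difference was -0.26, -0.57 and -1.12 across the doses in A549, and -0.60 and -1.54 at 1 and 3 µM in H1299. Without the 3 arrays in doubt, which left 1 array of each drug in A549 at 3 µM, the median of the members there was -0.175, against 0.031 over all genes.

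**Figure D5:**
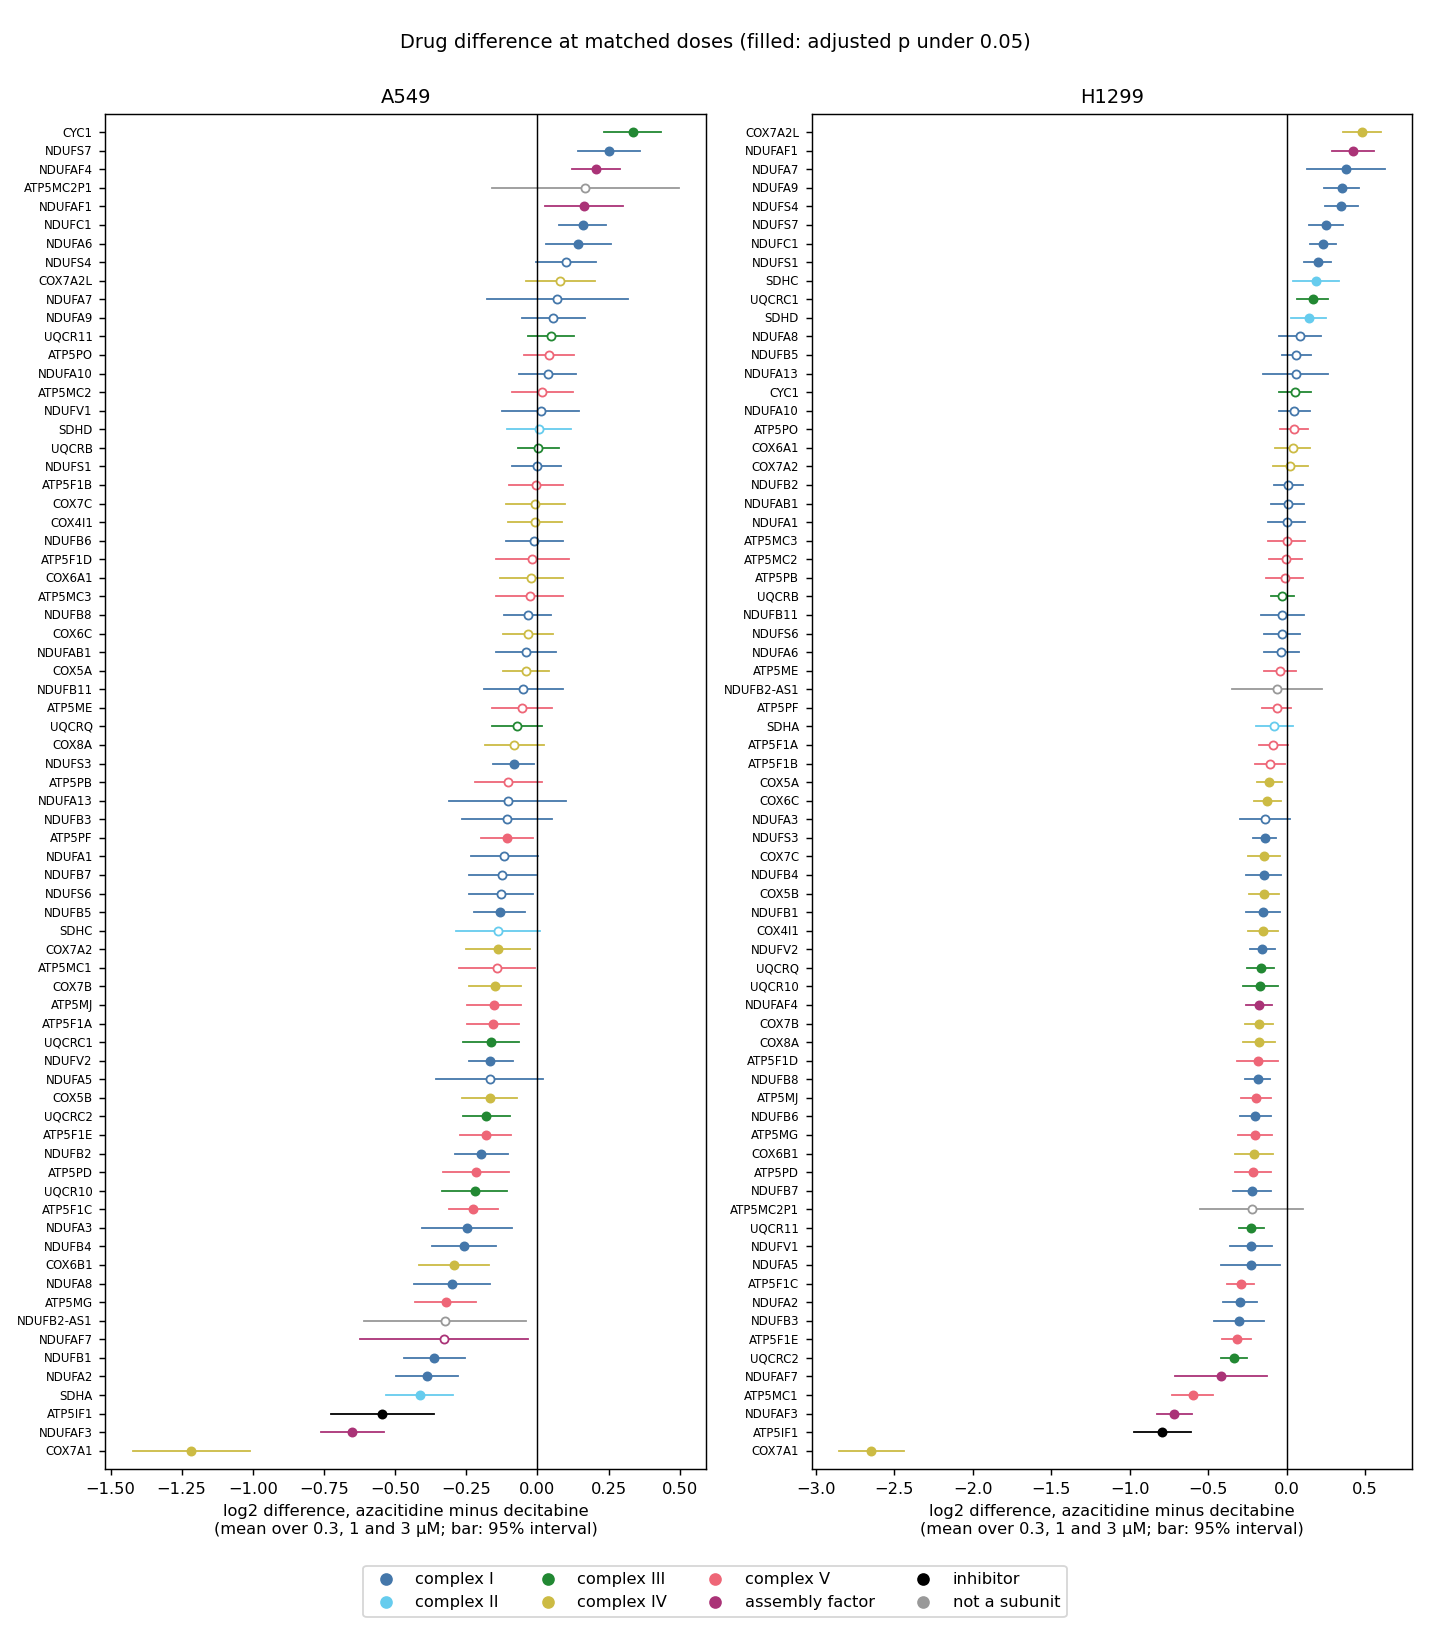
Points give the log2 difference, azacitidine minus decitabine, averaged over 0.3, 1 and 3 µM for each gene, with its 95% interval, in A549 (left) and H1299 (right); filled points have an adjusted p under 0.05. In both panels most filled points lie below 0, 27 of 33 in A549 and 35 of 46 in H1299, with COX7A1 by the filter among the 35.

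The lines also differed untreated. In vehicle 30 members were lower and 12 higher in A549 than in H1299, where 65.3% of all genes were called, 32.9% lower and 32.4% higher, so the share of members called lower (41.7%) was above that of all genes. The median was -0.11, -0.08 under quantile normalization, -0.18 under median centring and -0.06 without the 3 arrays in doubt. NDUFAF4 stood at 1543 and 1571 in A549 and 4095 and 4158 in H1299 (log2 difference -1.39 ± 0.07, limma, adjusted p = 1.67e-13). ATP5ME, subunit e of complex V, stood at 3441 and 4028 against 7641 and 8250 (-1.09 ± 0.09, adjusted p = 4.23e-10). SDHD, a membrane anchor of complex II, stood at 2498 and 2274 against 4986 and 4666 (-1.01 ± 0.09, adjusted p = 4.55e-09). NDUFA13, NDUFB5 and NDUFB7 gave differences of -1.13, -1.06 and -0.95. The largest difference the other way was that of NDUFB3, a membrane arm subunit, at 3026 and 4097 in A549 and 1976 and 2032 in H1299 (0.80 ± 0.13, adjusted p = 1.62e-05), followed by NDUFB2 at 0.59 and UQCRC2 at 0.54. ATP5F1D was lower in A549 vehicle, at -0.91 ± 0.11 (adjusted p = 1.98e-07), and its H1299 signals at 3 µM azacitidine, 756.3 and 807, lay within the range of the A549 vehicle arrays, 936.5 and 750.5.

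Several genes have more than 1 probe set, and these did not always move together. Over all 101 kept probe sets of the members, 58 were lower and 4 higher with azacitidine at 3 µM in H1299, and 31 and 3 in A549. In H1299 14 of the 17 genes with several kept probe sets had all of them on the same side of 0. COX4I1 was called both ways, lower at -0.31 and -0.30 and higher at 0.63. A second probe set of ATP5F1D gave -0.36 in H1299 and was not called, and in A549 it was called higher at 0.55. A second probe set of NDUFA2 gave -0.15 in H1299 and -0.25 in A549, neither called. Both UQCRC2 probe sets were lower in H1299.

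Genes that serve the same system, listed outside the member prefixes, did not all move with the subunits. Their counts stand against shares of all genes of 32.3% higher and 21.6% lower in H1299 and 22.1% and 16.2% in A549. Among regulators of mitochondrial biogenesis, azacitidine at 3 µM gave 10 higher and 1 lower of 16 in H1299, with a median of 0.46, and 8 higher and 0 lower of 16 in A549, with a median of 0.41; none was lower at an unadjusted p under 0.05 in A549. PPRC1, a coactivator of the PGC-1 family, was higher by 1.08 ± 0.11 in H1299 and 1.01 ± 0.11 in A549 (limma, adjusted p = 4.42e-08 and 3.39e-07). GABPB1, the partner of GABPA, was higher by 1.26 and 0.59, TWNK, the mitochondrial DNA helicase, by 0.89 in each, and PPARGC1A, which encodes PGC-1 alpha, by 1.37 in H1299. Assembly factors named outside the prefixes gave 5 higher and 3 lower of 22 in H1299 and 8 and 0 in A549, where 10 and 1 passed an unadjusted p of 0.05; COX15, needed for haem of complex IV, was higher by 0.85 and 0.42.

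Of 15 genes of the citrate cycle and pyruvate dehydrogenase, 5 were lower and 1 higher in H1299 and 5 lower and 0 higher in A549, where 0 were higher at an unadjusted p under 0.05 too. The medians were -0.15 and -0.09. In H1299 and A549, PDHA1, of pyruvate dehydrogenase, fell by 0.64 and 0.38 on the log2 scale, PDHB by 0.38 and 0.35, and citrate synthase CS by 0.44 and 0.28. Of 10 electron and nucleotide carriers 6 were lower and 1 higher in H1299 and 2 and 1 in A549, with ETFB, which carries electrons from fatty acid oxidation, at -0.97 and -0.67. Protein import and matrix chaperones split, 5 higher and 7 lower of 21 in H1299 and 9 and 3 in A549: the protease LONP1 was higher by 1.05 and 0.72 and the chaperone HSPA9 by 0.85 and 0.68, while HSPE1 and the import pore TOMM40 gave -1.22 and -1.02 in H1299. Of 49 mitochondrial ribosome proteins 12 were higher and 17 lower in H1299 and 14 and 4 in A549.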

How the data were processed

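RNA of 28 samples was measured on one-colour arrays, and the deposited values are MAS5 signal intensities on a linear scale, computed by the authors with MAS5 per the submitters' processing notes. Its version and scaling target are not given in the sources used here. A gene was represented by its brightest kept probe set, where kept probe sets were brighter than the median of an array on 2 or more arrays; this left 8024 genes. Signals were transformed as log2(signal + 32) and fitted with limma 3.58.1 in R 4.3.3 (with the package data.table, version 1.17.8), 1 mean per group over all 28 arrays (14 residual degrees of freedom), with moderated variances and a trend. This gave 23 comparisons. Genes with a two-sided Benjamini-Hochberg adjusted p under 0.05 over the 8024 genes were called, and intervals are 95%. Differences are on the log2(signal + 32) scale, which understates the change of dim genes.

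In each main comparison the genes to be named were the 6 largest rises and 6 largest falls among called members whose arrays did not overlap, plus core subunits of each complex, ATP5IF1, and the tissue isoforms with their counterparts. For the related pathways they were the 3 largest called genes of each list in a comparison, with the value in the other line beside it. ATP5MC2, ATP5MC3 and further members in the comparison of the drugs were named after their values were seen. The members and lists were chosen with earlier results of these data known.

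The alternatives were another pseudocount (1), a stricter filter and none, all kept probe sets, quantile normalization, median centring, a fit of 1 line alone, the replicate number as a block, leaving out each array, and, added after seeing the data, leaving out 3 A549 arrays. On simulated data for azacitidine at 3 µM in H1299, 100 of 8024 genes were changed by 0.5 and 100 by 1 on the log2 scale. Of these, 51% and 89% were found, and 6.67% of the calls were false. In the measured comparison 53.9% of genes were called, so these shares may not hold for it. Promoter windows were read from RefSeq.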

Additional observations from a re-analysis of the deposited data

Results flagged for a closer look

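By the interaction term of the limma fit, the response to azacitidine at 3 µM differed between the lines for 15 members (20.8%). Over all genes tested 31.4% were called, so the share of members was below that of all genes. Given here are 7 of them, the largest differences among called members in each direction. On the log2 scale, A549 minus H1299, the difference was 0.866 for ATP5F1D, 0.681 for NDUFAF3, 0.641 for ATP5IF1, 0.635 for ATP5MC1, 0.557 for COX5A, 0.553 for UQCRC2 and -0.51 for COX7A2L. The calls of ATP5IF1 and COX7A2L were kept under 11 and 12 of 16 alternatives and the others under every one. A second probe set of ATP5F1D was called higher in A549 and was not called in H1299.

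The response to decitabine at 3 µM differed between the lines for 8 members, where 17.3% of all genes were called, so the share of members (11.1%) was below that of all genes. The difference was 0.521 for ATP5F1D, 0.514 for UQCRC1, 0.486 for NDUFA8, 0.398 for NDUFA10, 0.382 for COX5A, 0.352 for NDUFB5, -0.314 for NDUFAF4 and -1.841 for COX7A1. COX7A1 passed the filter through the H1299 decitabine arrays alone, so its difference was fixed by the filter and is a description. Of 16 alternatives, 15 kept the call of UQCRC1, 14 that of COX5A, 11 those of ATP5F1D and NDUFA10, 10 that of NDUFB5 and 8 those of NDUFA8 and NDUFAF4.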

How the results depend on the processing

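Of 260 counts of called members under an alternative, 216 lay within 1.5 times the reported count. Without the 3 A549 arrays in doubt the A549 counts went, for azacitidine at 0.3, 1 and 3 µM, to 0, 3 and 15, for decitabine to 1, 3 and 1, for the drugs compared at 3 µM to 25, and for the difference between lines in the decitabine response to 5. The share of all genes called was also lower without these arrays in each of these comparisons. With no filter azacitidine at 1 µM in A549 gave 6, and a fit of 1 line alone gave 5 there and 5 for decitabine at 1 µM. Median centring gave 4 for decitabine at 0.3 µM in H1299 and 24 for the difference between lines in the azacitidine response. Under quantile normalization COX6A1 and COX7A2, not called with azacitidine at 3 µM in H1299, became 0.134 and 0.136 in place of -0.06 and -0.05. Leaving out 1 array gave, in A549, 0 to 1, 3 to 16 and 12 to 21 calls for azacitidine at 0.3, 1 and 3 µM and 1 to 2, 2 to 10 and 7 to 23 for decitabine. In H1299 it gave 10 to 17 for azacitidine at 1 µM and 39 to 46 at 3 µM, and 1 to 4, 4 to 6 and 6 to 11 for decitabine. For the differences between lines it gave 9 to 20 with azacitidine and 3 to 11 with decitabine. The cause of these changes was not tested, beyond the smaller number of arrays. With the replicate number as a block, 49 members were called for azacitidine at 3 µM in H1299, 26 in A549, and 18 for decitabine at 3 µM in each line. Deviations of same-numbered arrays correlated between -0.245 and 0.266 in A549 and between -0.078 and 0.156 in H1299, with medians of 0.029 and 0.002. In A549 9 of 21 pairs of groups lay above 0.1, and in H1299 3 of 21. These values do not settle whether same-numbered arrays were paired. Of 120 named calls 75 were kept under every alternative run.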

Other observations

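With decitabine at 3 µM 14.6% of all genes were lower and 16.3% higher in H1299, and 10.8% and 15% in A549. In H1299 7 of 15 genes of the citrate cycle and pyruvate dehydrogenase were lower and 1 higher, with a median of -0.23, and SUCLG2, a subunit of succinyl-CoA ligase, fell by 0.94 on the log2 scale. Of 49 mitochondrial ribosome proteins 15 were lower and 2 higher there, and MRPL58 fell by 0.98. In A549 9 were lower and 6 higher. The outer membrane channel VDAC1 fell by 0.80 in H1299. The pseudogene ATP5MC2P1 and the antisense RNA gene NDUFB2-AS1 were called in none of the 12 comparisons of a dose with vehicle. NDUFAF7, an assembly factor of complex I named after its values were seen, went from 206 and 204.7 in H1299 vehicle to 143.3 and 76.3 with azacitidine at 1 µM, a log2 difference of -0.78 ± 0.24 (limma, adjusted p = 0.0161).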
